A study of Mus musculus with 18 samples.

Results

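The genes described here are 58 genes of mitosis, the stage of the cell cycle in which duplicated chromosomes are separated, among the 51912 genes in the deposited table of mouse B cells. They were listed by name, as genes of the G2/M transition, spindle, kinetochore and condensin, and all 58 were matched to 1 Ensembl identifier each by symbol in the GRCm38 annotation. The libraries came from C57BL/6 mice, either WT or Sh3gl1-/-, that is, lacking in all cells the gene for endophilin A2, a membrane-bending protein of endocytosis. RNA was sequenced in 6 groups of 3 libraries: WT and Sh3gl1-/- transitional B cells, WT and Sh3gl1-/- follicular B cells, both untreated, and WT and Sh3gl1-/- follicular B cells treated with CD40L for 14 h. CD40L is the T-cell ligand that drives B cells to grow and divide. In the study's flow cytometry, transitional cells were B220+CD93+ and follicular cells were mature B220+CD93- spleen cells set apart by CD23 and CD21/35, and the WT animals were Sh3gl1+/+ littermates. The follicular cells were sorted and used ex vivo or after culture with CD40L, so that CD40L and culture cannot be told apart. For the follicular libraries 3 mice of each genotype were used. The labels do not tie libraries to animals, and p-values measure only the spread between these libraries. The age of the animals was not given in the sources used here.

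Entry into mitosis is driven by the kinase CDK1 with its B-type cyclins. Condensin then compacts the chromosomes, kinetochores tie them to spindle microtubules, and the spindle checkpoint holds back the anaphase-promoting complex until all are attached. Most of these genes are transcribed late in the cell cycle, through the DREAM and MuvB complexes, MYBL2 and FOXM1, and their mRNAs are low in resting cells such as follicular B cells. In bulk libraries, fewer dividing cells and less of an mRNA in each cell cannot be told apart.

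Total counts per library ranged from 12404688 to 18366078, and 3 counts, taken as the floor of detection, stood for 0.163 to 0.242 CPM, a floor for counting error only. CPM is a count scaled to the size of its library, here with TMM factors over all 18 libraries. Sh3gl1 itself was measured first. WT libraries held 591, 467 and 377 counts of it in transitional cells, 528, 569 and 447 in follicular cells, and 839, 802 and 929 after CD40L. Sh3gl1-/- libraries held 7, 4 and 11, then 2, 3 and 1, and then 20, 22 and 11 counts, so that every library matched its label. The B-lineage markers Cd79a and Cd79b were abundant throughout. Cd93, which marks transitional cells, stood at 65.5, 72.7 and 58.1 CPM in WT transitional and 11.8, 14.5 and 12.5 CPM in WT follicular libraries, and at 83.7, 86.4 and 57.9 CPM and 26.3, 22.6 and 14.4 CPM in the Sh3gl1-/- ones. Rag1 was at 0 in all follicular and CD40L libraries. The pre-B markers Igll1 and Dntt reached at most 0.887 CPM in any library.

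One library stood apart. CD40L WT replicate 3 was the highest of its group for 55 of the 58 mitosis genes, and its summed level of them, without the most abundant, Tubb5, was 2381 CPM against 1305 and 1376 CPM in replicates 1 and 2. CD40L Sh3gl1-/- replicate 3 was the highest of its group for 38 of 58, with 1445 CPM against 1357 and 1073 CPM. The spread among CD40L libraries was therefore wide for most of these genes. Total counts of calls and medians of the 58 genes for CD40L are given below with and without these libraries. The 5 largest folds in WT are also given without CD40L WT replicate 3. Counts by role, and counts of genes whose groups did not overlap, were taken with these libraries included.

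The 58 genes were unequal in level. On the per-length TPM scale, 13 of 58 exceeded 10 TPM on average in WT follicular cells, and the median of the 58 was 2.79 TPM. Tubb5, a beta-tubulin, led with 218.5 ± 52.1 TPM (SD, n = 3), followed by Pttg1, or securin, with 141.3 ± 1.03 TPM, and Bub3, a checkpoint protein, with 127.8 ± 6.78 TPM. Tubb5 belongs to a multigene family, and RSEM divides reads shared between such copies, so its value is less certain. Between groups, the mean CPM was highest in WT transitional cells for 30 of 58 genes and in WT CD40L-treated cells for 20. Without CD40L WT replicate 3 these counts were 41 and 5, the 5 being Smc2, Spc25, Bub3, Cdca8 and Tubb5. It was lowest in WT follicular cells for 35 and in Sh3gl1-/- follicular cells for 12. Without Tubb5, the summed level was 1545, 1890 and 1851 CPM in WT transitional cells and 1217, 1125 and 1192 CPM in Sh3gl1-/- ones. It was 938.7, 923 and 923 CPM in WT and 1019, 959 and 991 CPM in Sh3gl1-/- follicular cells. The ranges of WT and Sh3gl1-/- cells did not overlap in either ex vivo state, with Sh3gl1-/- below WT in transitional cells and above it in follicular cells. With Tubb5 included, the follicular sums overlapped, at 1478, 1256 and 1452 CPM in WT and 1376, 1284 and 1338 CPM in Sh3gl1-/- cells.

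**Figure D1:**
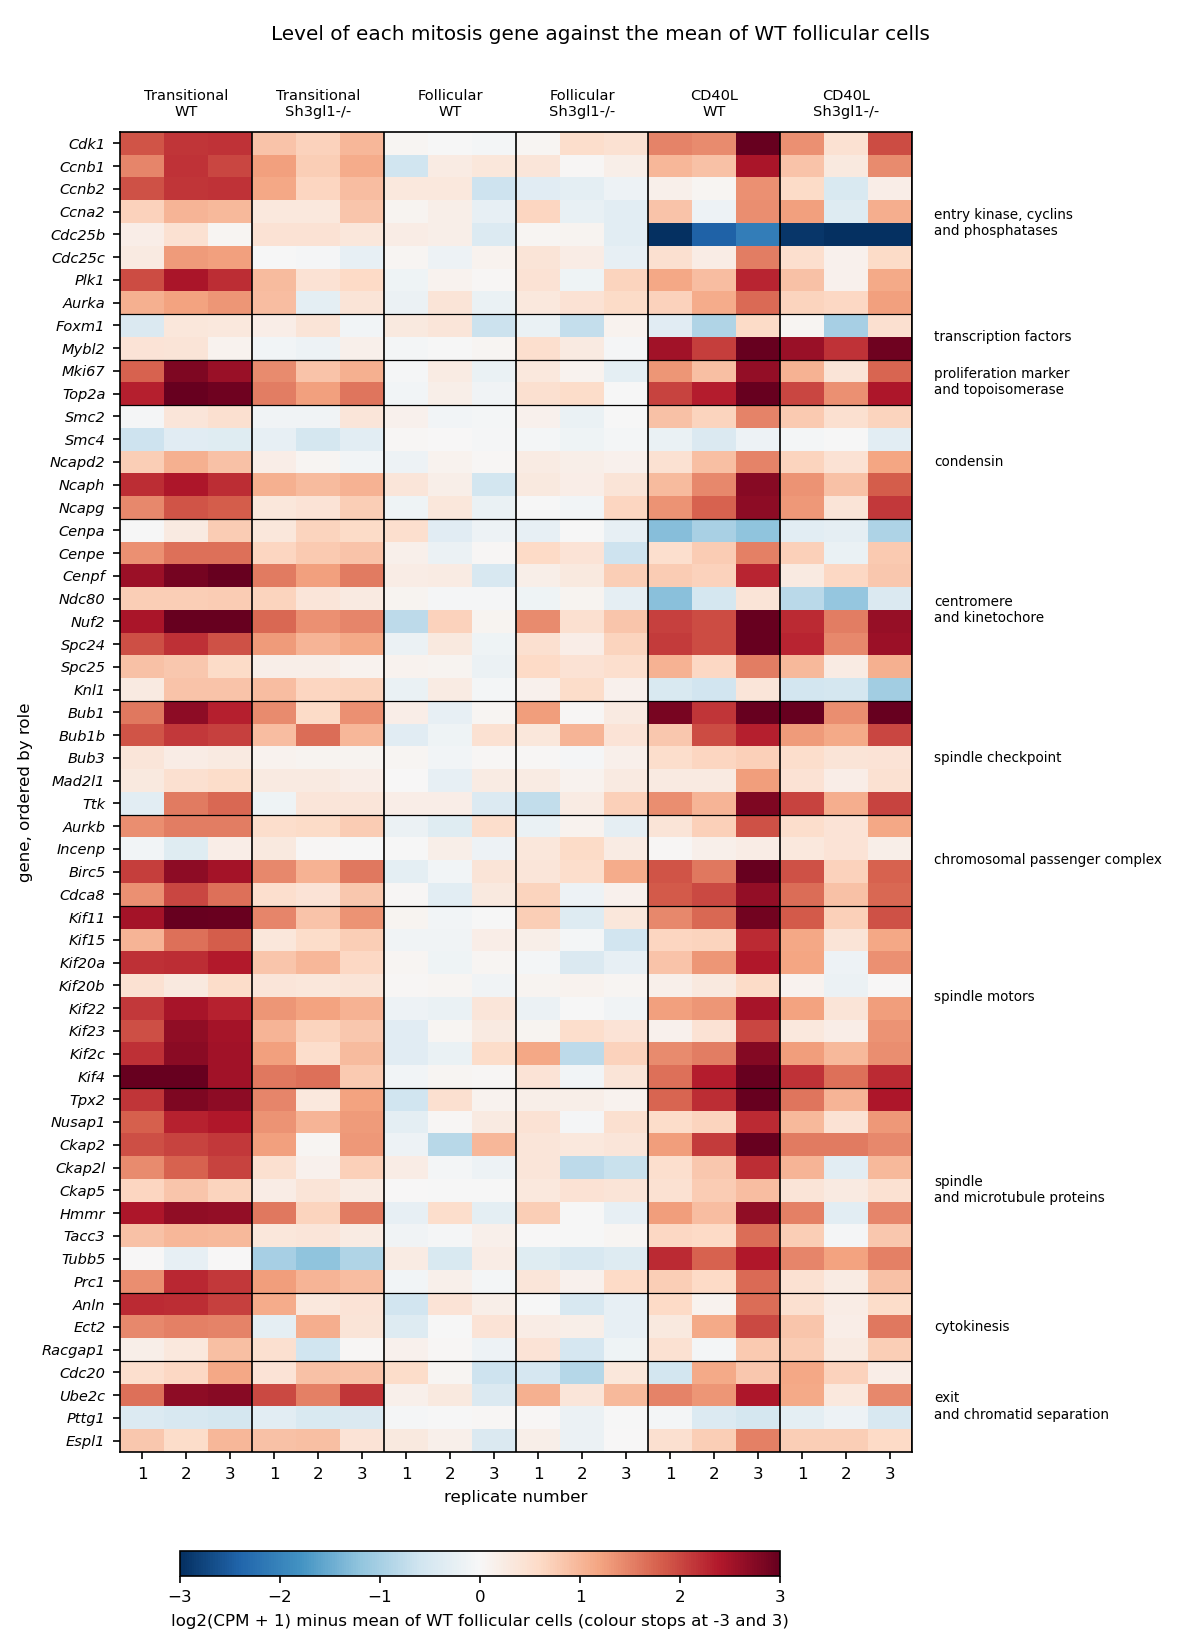
Heat map of log2(CPM + 1) of the 58 mitosis genes (rows, grouped by role) in the 18 libraries (columns, by group and replicate number), as the difference from the mean of WT follicular cells, with red for higher and blue for lower. WT transitional libraries and CD40L WT replicate 3 are the reddest columns, Cdc25b is blue in all 6 CD40L libraries, and Tubb5 is blue in Sh3gl1-/- transitional libraries.

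Transitional cells were compared with follicular cells of the same genotype, on the 12 ex vivo libraries. In WT, 45 of 58 mitosis genes were higher in transitional cells and 2 lower, where 14.2% and 11.7% of all 14580 genes tested were. The median log2 fold change of the 58 was 1.79, against -0.03 for all genes tested. In 48 of 58 the transitional libraries all lay above the follicular ones, which held for 21.2% of all genes. By role, all 8 spindle motors, 8 of 9 spindle and microtubule proteins, 7 of 8 entry genes, 7 of 8 kinetochore genes, 4 of 5 checkpoint genes and 3 of 5 condensin genes rose, and neither transcription factor was called. The largest rises were in Kif4, Nuf2, Cenpf, Kif2c and Bub1. Kif4, a chromosome-bound kinesin, had only 9 counts summed over the WT follicular libraries against 329 in transitional ones, a ratio of 39.1 with a 95% counting interval of 20.4 to 86.4. Counting intervals, here and below, pool the libraries of a group and leave out the spread between them, so they are too narrow for the group difference. Nuf2, a subunit of the NDC80 kinetochore complex, rose 11.3-fold (log2 3.498 ± 0.52 (SE), adjusted p = 0.000333), and Cenpf, a kinetochore protein, 10.1-fold (log2 3.33 ± 0.30 (SE), adjusted p = 8.75e-06). Kif2c, a microtubule-depolymerizing kinesin, rose 9.79-fold, and Bub1, a checkpoint kinase, 9.03-fold. The folds of Nuf2 and Kif2c rest on low follicular levels, with Nuf2 at 0.194, 2.37 and 1.21 CPM (3, 38 and 16 counts) and Kif2c at 0.518, 0.686 and 1.81 CPM (8, 11 and 24 counts) in WT. The log2 fold change of Nuf2 was 2.98 without follicular WT replicate 1 and 4.39 without replicate 2, and that of Kif2c 3.99 without replicate 3, all still called. The 2 that fell were Pttg1 (-0.49, adjusted p = 0.001) and Smc4 (-0.46, adjusted p = 0.00396).

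In Sh3gl1-/- cells the same comparison called 17 of 58 mitosis genes higher and 2 lower, with 6.72% and 3.71% of all genes tested. Their median log2 fold change was 0.61, against 0.00 for all genes. The groups did not overlap, with transitional above, for 29 of 58, and for 16.2% of all genes. The largest rises were in Kif4 (102 against 18 summed counts, a ratio of 5.26 with a counting interval of 3.17 to 9.24), Ccnb2 (1.52 ± 0.31, SE), Hmmr (1.45 ± 0.42), Kif22 (1.42 ± 0.18) and Kif20a (1.29 ± 0.19). Tubb5 (-0.62 ± 0.15) and Pttg1 (-0.37 ± 0.09) fell. The count of calls ranged from 10 to 22 over the 12 fits that each left out 1 library, with 10 without transitional Sh3gl1-/- replicate 1, 11 without transitional Sh3gl1-/- replicate 3, 11 without follicular Sh3gl1-/- replicate 1 or 2 and 12 without replicate 3, and was 4 when all 18 libraries entered 1 fit.

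The difference between the genotypes in this comparison was tested directly. Of the 58 genes, 4 passed, all with a lower genotype effect in transitional than in follicular cells, where 0.048% of all genes (7 of 14580) did so. They were Cdk1 (-1.78 ± 0.29 (SE), adjusted p = 0.0409), Top2a (-1.71 ± 0.27 (SE), adjusted p = 0.0409), Ncapd2 (-1.03 ± 0.17 (SE), adjusted p = 0.0409) and Ckap5 (-0.80 ± 0.12 (SE), adjusted p = 0.0409). Ncapd2, a condensin I subunit, was at 39.4, 49.01 and 42.95 CPM in WT and 26.8, 23.9 and 21.7 CPM in Sh3gl1-/- transitional cells and at 20.7, 24.8 and 23.8 CPM in WT and 27.3, 26.3 and 25.1 CPM in Sh3gl1-/- follicular cells. Its Sh3gl1-/- libraries lay below all WT ones in the former and above all in the latter. The difference lay below 0 for 51 of 58, with a median of -1.14 (0.02 for all genes tested), and 38 had an unadjusted p under 0.05, as had 1992 of 14580 genes in all. Same-numbered transitional and follicular libraries of a genotype deviated together, and with the replicate number as a block within genotype 14 of the 58 passed, these 4 among them, and 99 genes in all against 10 without the block. The call depended on single libraries: the count was 0 in 9 of the 12 fits that left 1 library out, and 0 genes in all passed there. It was 1 without transitional Sh3gl1-/- replicate 2 (10 genes in all), 3 without follicular WT replicate 3 (16) and 7 without transitional WT replicate 1 (23). The median difference of the 58 stayed between -1.25 and -1.04 in these 12 fits. DESeq2 called 25, of 352 genes in all, and a single fit of all 18 libraries 0.

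**Figure D2:**
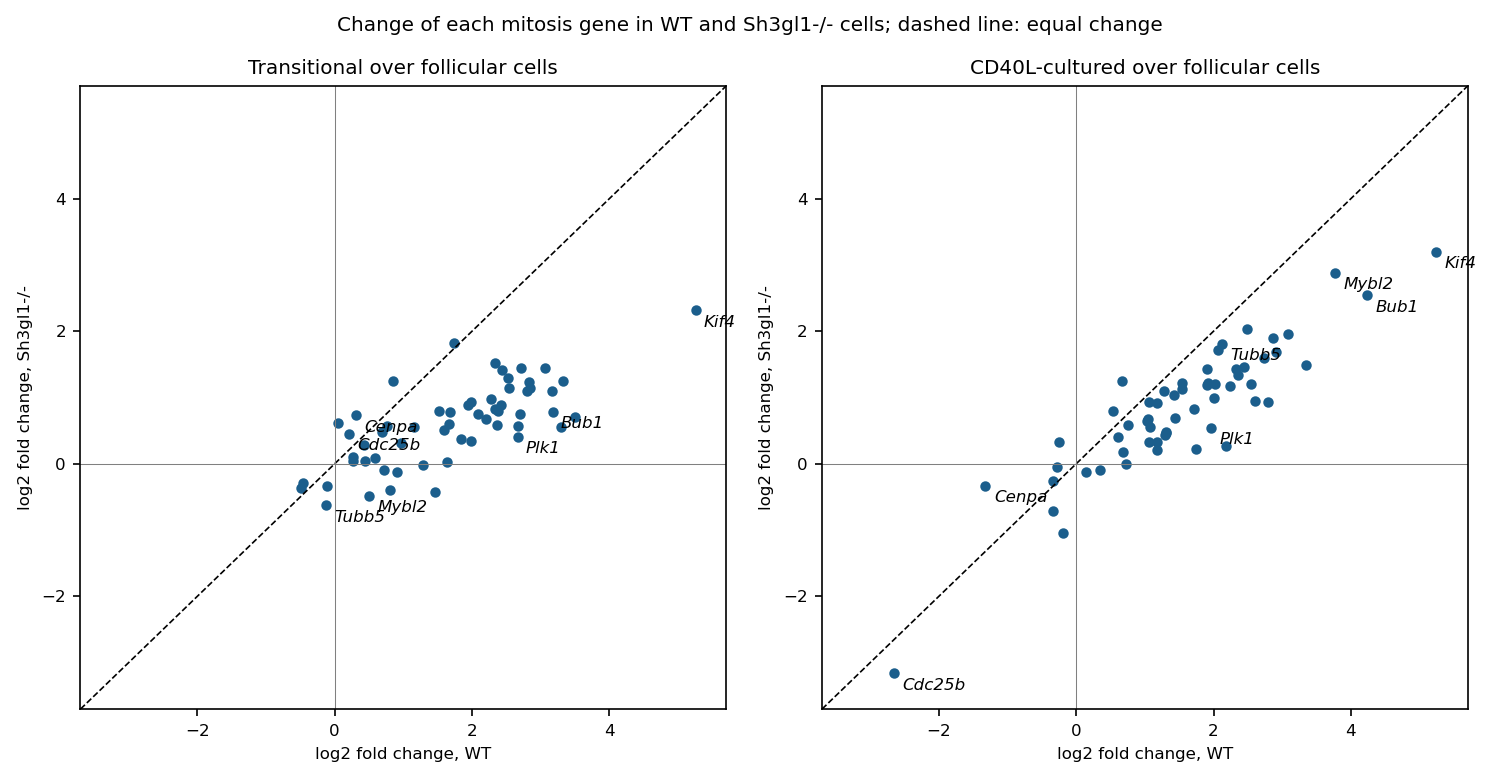
Log2 fold change of each of the 58 mitosis genes in WT (x axis) and in Sh3gl1-/- cells (y axis), for transitional over follicular cells (left) and CD40L-treated over follicular cells (right), with a dashed line of equal change. Most points lie below the line in both panels, and the direct test of the difference passed for 4 genes on the left and for 0 on the right.

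Sh3gl1-/- cells were then compared with WT cells within each state. In transitional cells 32 of 58 mitosis genes were lower in Sh3gl1-/- and 0 were higher, where 2.48% of all 13775 genes tested were lower. The median log2 difference of the 58 was -0.96, against 0.02 for all genes, and in 42 of 58 the Sh3gl1-/- libraries all lay below the WT libraries, which held for 14.6% of all genes. A single gene in 3 against 3 libraries cannot go below p = 0.1 in an exact permutation test, so the calls rest on edgeR's pooled estimate of the spread. Kif4 was at 8.82, 9.52 and 5.91 CPM in WT and 2.603, 2.77 and 1.08 CPM in Sh3gl1-/- transitional cells, Kif2c at 7.79, 11.6 and 10.1 and 3.55, 1.802 and 2.73 CPM, and Anln, a scaffold of the contractile ring, at 10.1, 10.04 and 8.86 and 4.14, 1.93 and 2.16 CPM. In none of the 3 did the genotypes overlap. Kif4 was 3.72-fold lower (log2 -1.90 ± 0.37 (SE), adjusted p = 0.0308), Kif2c 3.62-fold (-1.85 ± 0.30 (SE), adjusted p = 0.0182), and Anln 3.48-fold (-1.80 ± 0.31 (SE), adjusted p = 0.0228). Plk1 was 3.41-fold (-1.77 ± 0.24 (SE), adjusted p = 0.0109) and Kif11 3.28-fold lower (-1.71 ± 0.21 (SE), adjusted p = 0.00928). By role, 7 of 8 spindle motors, 8 of 9 spindle and microtubule proteins, 3 of 4 chromosomal passenger genes, 3 of 5 condensin genes, 4 of 8 kinetochore genes, 4 of 8 entry kinases, cyclins and phosphatases, both Mki67 and Top2a, and 1 of 3 cytokinesis genes fell. None of the 5 checkpoint genes, of the 4 genes of mitotic exit or of the 2 transcription factors passed.

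The count depended on the libraries and the fit, while the median difference of the 58 stayed between -1.07 and -0.89 without any 1 library and was -0.96 with all 18 libraries in 1 fit. The count was 6 without transitional Sh3gl1-/- replicate 3 (28 genes called in all), 8 without transitional WT replicate 2 (51) and 13 without Sh3gl1-/- replicate 1 (56). It was 22 without WT replicate 3 (284), and 29 without WT replicate 1 (216) or Sh3gl1-/- replicate 2 (479). The main fit called 514 genes in all, in either direction. With all 18 libraries in 1 fit 3 members were called (144 genes in all). DESeq2 called 39 (1244 in all), the 32 among them, and none of these fits called a member higher.

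**Figure D3:**
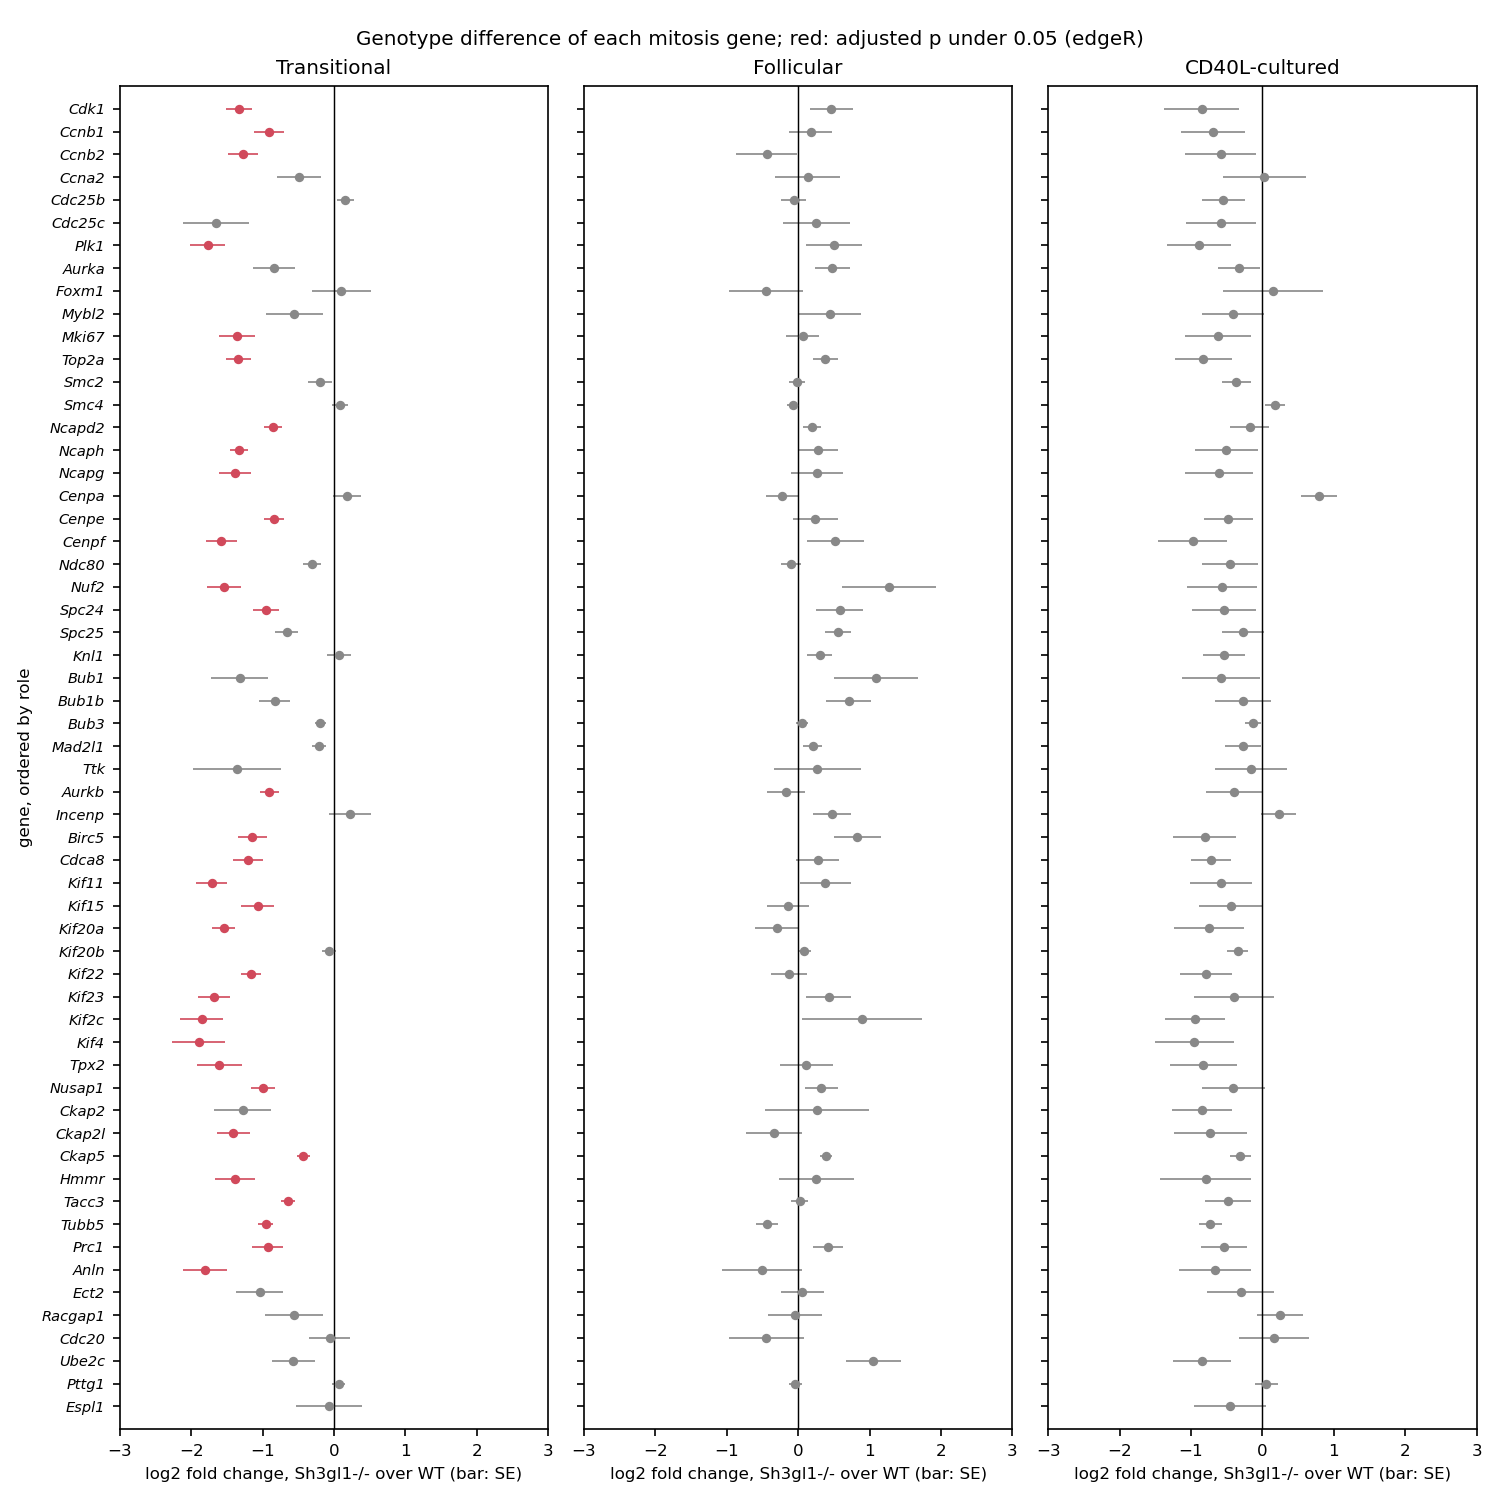
Log2 fold change of Sh3gl1-/- over WT cells for each of the 58 mitosis genes (rows, in order of role) in transitional, follicular and CD40L-treated cells, with bars of 1 SE and red for an adjusted p under 0.05 in edgeR. Red points occur in the transitional panel alone, all left of 0. Kif4 and Espl1 did not pass the filter on low counts in follicular cells and have no point there.

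Promoters are shown because these genes moved largely together. RefSeq promoters on GRCm38.p6, from 250 bases before to 50 after a gene's start, were matched by symbol for 49 of the 58 genes. The motif TTTGAA, the cell cycle genes homology region (CHR) bound by MuvB, was searched on both strands and was present in 36 of 49 (73.5%), against 5466 of 27025 genes (20.2%) in all. The motif CCAAT, the NF-Y box, was present in 35 of 49 (71.4%), against 41.1% in all, and both motifs in 61.2% against 8.97%. Among the 28 matched genes that fell in Sh3gl1-/- transitional cells 20 (71.4%) held TTTGAA, and among the other 21 members 16 (76.2%) did. The windows below run from 110 bases before to 30 after the start, 5′ to 3′, with TTTGAA or TTCAAA and CCAAT or ATTGG in capitals. The first 6 genes rose in WT transitional cells and fell in Sh3gl1-/- ones. Cdc25b, shown last, did neither, and its window holds no TTTGAA. These windows are chosen examples and do not stand for the whole list, where 16 of the 21 members that did not fall also held TTTGAA. Starts are those of the RefSeq table.
Cdk1 (chr10:69352883-69353022, minus strand): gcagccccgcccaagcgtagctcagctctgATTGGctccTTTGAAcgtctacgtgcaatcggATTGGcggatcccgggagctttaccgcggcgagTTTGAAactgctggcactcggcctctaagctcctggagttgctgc
Ccnb2 (chr9:70421525-70421664, minus strand): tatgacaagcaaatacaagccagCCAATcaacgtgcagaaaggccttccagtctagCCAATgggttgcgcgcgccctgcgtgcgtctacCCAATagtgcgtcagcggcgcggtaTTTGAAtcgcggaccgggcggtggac
Top2a (chr11:99024160-99024299, minus strand): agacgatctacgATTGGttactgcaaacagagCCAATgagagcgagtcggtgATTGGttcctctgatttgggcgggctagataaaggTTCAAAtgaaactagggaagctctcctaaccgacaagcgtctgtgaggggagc
Kif11 (chr19:37376272-37376411, plus strand): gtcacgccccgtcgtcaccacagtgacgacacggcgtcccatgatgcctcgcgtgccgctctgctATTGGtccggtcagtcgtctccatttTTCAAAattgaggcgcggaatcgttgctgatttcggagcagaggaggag
Kif23 (chr9:61946770-61946909, minus strand): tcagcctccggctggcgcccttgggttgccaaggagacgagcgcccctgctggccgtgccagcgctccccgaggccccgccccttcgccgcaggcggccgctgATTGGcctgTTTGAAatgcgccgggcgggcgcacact
Hmmr (chr11:40733408-40733547, minus strand): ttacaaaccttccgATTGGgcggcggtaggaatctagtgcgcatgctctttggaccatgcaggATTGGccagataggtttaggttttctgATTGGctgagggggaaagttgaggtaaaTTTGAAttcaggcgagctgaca
Cdc25b (chr2:131186838-131186977, plus strand): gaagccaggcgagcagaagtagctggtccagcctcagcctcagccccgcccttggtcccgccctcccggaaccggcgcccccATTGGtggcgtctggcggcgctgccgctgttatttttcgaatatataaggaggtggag
In Cdk1, Ccnb2, Top2a, Kif11, Kif23 and Hmmr both motifs stand within the window. Kif23 encodes the centralspindlin motor and Hmmr a spindle-pole protein. A match describes these letters and shows no binding.

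In follicular cells 0 of the 56 mitosis genes tested differed by genotype, where 0.845% of all genes tested did, and 5 had an unadjusted p under 0.05 (Spc25, Birc5, Ckap5, Ube2c and Tubb5, against 1480 of 13610 genes). DESeq2 called 1. The median difference was 0.24, and 0.08 without follicular Sh3gl1-/- replicate 1. Sh3gl1-/- libraries all lay above WT ones in 6 of 56 genes (7.55% of all genes) and below in 1 (8.41%). After CD40L, 0 of 58 differed, where 0.0227% of all genes did, with 4 at an unadjusted p under 0.05 (Cenpa, Cdca8, Kif20b and Tubb5, against 930 of 13190) and 1 called by DESeq2. The median was -0.52 and 50 of 58 differences lay below 0, but without CD40L WT replicate 3 the median was 0.04, with 0 calls as well. The libraries lay fully below WT in 4 genes (8.42% of all genes) and fully above in 1 (5.78%).

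The response to CD40L was taken against follicular cells of the same genotype, so that it shares its follicular libraries with the comparison of transitional cells. Markers of other cell types also differed between these libraries, as given with the markers below. In WT, 44 of 58 mitosis genes rose and 4 fell, where 23.6% and 25.7% of all 14460 genes tested did. Their median log2 fold change was 1.49, against -0.08 for all genes, and in 42 of 58 the CD40L libraries all lay above the follicular ones (26.4% of all genes). Without CD40L WT replicate 3 the median was 0.87, with 32 rises and 3 falls, and without both CD40L libraries numbered 3 it was 0.89, with 32 rises and 5 falls. These fits called 5981 and 6037 genes in all, in either direction, against 7126 with every library. By role, all 5 checkpoint genes, all 9 spindle and microtubule proteins, Mki67 and Top2a rose, as did 7 of 8 spindle motors, 4 of 5 condensin and 5 of 8 kinetochore genes. Kif4 had 380 summed counts against 9, a ratio of 36.7 with a counting interval of 19.1 to 80.9. Of the 380, 262 were in replicate 3, and without that library the ratio was 18.1, with an interval of 9.22 to 40.6. Bub1 was at 1.101, 0.561 and 0.907 CPM in WT and 3.38, 0.893 and 1.22 CPM in Sh3gl1-/- follicular cells, and at 12.3, 7.11 and 29.4 CPM in WT and 13.9, 3.88 and 13.8 CPM in Sh3gl1-/- cells after CD40L. It rose 18.8-fold in WT (log2 4.23 ± 0.68 (SE), adjusted p = 0.000152), Mybl2 13.7-fold (3.77 ± 0.47 (SE), adjusted p = 1.62e-05), Nuf2 10.2-fold (3.34 ± 0.67 (SE), adjusted p = 0.000903) and Spc24, also of the NDC80 complex, 8.51-fold (3.09 ± 0.45 (SE), adjusted p = 7.33e-05). Without CD40L WT replicate 3 the log2 fold changes of Bub1, Mybl2, Nuf2 and Spc24 were 3.49, 3.01, 2.51 and 2.36, all 4 still called. That of Nuf2, with its low follicular counts, was 2.83 without follicular WT replicate 1 and 4.26 without replicate 2. The 4 that fell were Cdc25b (-2.65 ± 0.25 (SE), adjusted p = 1.46e-06), Cenpa (-1.32 ± 0.25 (SE), adjusted p = 0.000604), Pttg1 (-0.34, adjusted p = 0.0409) and Smc4 (-0.27, adjusted p = 0.0498). The falls of Pttg1 and Smc4 were not called by DESeq2 (adjusted p = 0.0757 and 0.106), with median-ratio scaling (0.0688 and 0.0985), with either other filter, with the block within genotype or without CD40L WT replicate 3, so that 2 falls were left in the first 5 of these.

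In Sh3gl1-/- cells 19 of 58 rose with CD40L and 2 fell, where 20.6% and 21.7% of all genes did. The median log2 fold change was 0.93, against -0.03 for all genes, and 0.66 without both CD40L libraries numbered 3. By role, 4 of 5 condensin genes, 3 of 5 checkpoint genes, 5 of 8 spindle motors, 2 of 9 spindle and microtubule proteins and 0 of 8 entry genes rose. The CD40L libraries lay fully above in 23 of 58, and in 25.2% of all genes. The largest rises were in Kif4 (175 against 18 summed counts, a ratio of 9.41 with a counting interval of 5.78 to 16.2), Mybl2 (2.89 ± 0.45, SE), Bub1 (2.55 ± 0.62), Ttk (2.04 ± 0.62), a checkpoint kinase, and Spc24 (1.95 ± 0.44). Without follicular Sh3gl1-/- replicate 1, Bub1 was at 3.33, still called, and Ttk at 1.59, not called (adjusted p = 0.0562). Cdc25b (-3.16 ± 0.26) and Knl1 (-1.05 ± 0.26), a kinetochore scaffold, fell. The count of 21 calls (6130 genes in all) became 14 (5296 in all) without CD40L Sh3gl1-/- replicate 3 and 30 (5973) without replicate 2. It became 32 (6318) without CD40L WT replicate 3, a library of the other genotype that enters the shared spread. Without both CD40L libraries numbered 3 it was 20 (5413). The difference between the genotypes in the CD40L response passed for 0 of the 58 genes and for 0% of all 14460. Of the 58, 12 had an unadjusted p under 0.05 (1278 of 14460 in all), 52 lay below 0, the median was -0.73, and DESeq2 called 1. Without CD40L WT replicate 3 that median was -0.15.

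Among the kinases and cyclins of mitotic entry, Cdk1, the kinase that starts mitosis, stood at 14.3, 17.2 and 17.4 CPM in WT and 6.45, 5.66 and 7.27 CPM in Sh3gl1-/- transitional cells. It was at 3.303, 3.12 and 2.95 CPM in WT and 3.303, 4.91 and 4.64 CPM in Sh3gl1-/- follicular cells, and at 10.5, 9.96 and 34.5 CPM in WT and 9.69, 4.67 and 15.01 CPM in Sh3gl1-/- cells after CD40L. The genotypes were apart in transitional cells, where Cdk1 fell 2.52-fold (-1.33 ± 0.18 (SE), adjusted p = 0.0102), and overlapped after CD40L. Ccnb1, the cyclin B1 partner of CDK1, was at 18.7, 30.9 and 27.4 CPM in WT and 15.6, 10.9 and 14.3 CPM in Sh3gl1-/- transitional cells, at 3.69, 7.49 and 8.01 CPM in WT and 8.18, 6.25 and 7.07 CPM in Sh3gl1-/- follicular cells, and at 13.2, 12.02 and 37.7 CPM in WT and 11.9, 7.68 and 18.1 CPM in Sh3gl1-/- cells after CD40L. Ccnb2, a second B-type cyclin, was at 12.6, 14.99 and 15.4 CPM in WT and 7.098, 4.697 and 5.902 CPM in Sh3gl1-/- transitional cells, at 3.498, 3.49 and 1.36 CPM in WT and 1.88, 1.98 and 2.29 CPM in Sh3gl1-/- follicular cells, and at 3.03, 2.79 and 8.45 CPM in WT and 4.39, 1.66 and 3.17 CPM in Sh3gl1-/- cells after CD40L. Both cyclins were lower in all Sh3gl1-/- than in all WT transitional libraries, with log2 differences of -0.91 and -1.27. Ccna2, cyclin A2 of S phase and G2, was low throughout, at 3.998, 5.25 and 5.11 CPM in WT and 2.84, 2.83 and 4.54 CPM in Sh3gl1-/- transitional cells, with overlapping groups. It was at 2.27, 2.495 and 1.59 CPM in WT and 3.83, 1.66 and 1.5 CPM in Sh3gl1-/- follicular cells, and at 4.55, 1.79 and 7.06 CPM in WT and 6.28, 1.35 and 5.61 CPM in Sh3gl1-/- cells after CD40L, and of the comparisons only that of WT transitional with WT follicular cells passed (1.15 ± 0.38 (SE), adjusted p = 0.0395). Plk1, Polo-like kinase 1, was at 10.96, 16.04 and 13.5 CPM in WT and 4.97, 3.15 and 3.67 CPM in Sh3gl1-/- transitional cells, at 1.81, 2.31 and 2.19 CPM in WT and 3.15, 1.85 and 3.93 CPM in Sh3gl1-/- follicular cells, and at 5.93, 4.85 and 14 CPM in WT and 4.67, 2.38 and 5.86 CPM in Sh3gl1-/- cells after CD40L. Its WT transitional libraries lay above all others except CD40L WT replicate 3. Aurka, the centrosomal Aurora kinase, rose in WT transitional and CD40L-treated cells (1.28 and 1.31) and gave -0.84 by genotype in transitional cells, with an adjusted p of 0.135. Cdc25c, a CDK1-activating phosphatase, gave -1.65 there (adjusted p = 0.0789). Cdc25b, the related phosphatase, fell with CD40L. It was at 51.95, 50.02 and 33.1 CPM in WT and 46.2, 47.01 and 35.5 CPM in Sh3gl1-/- follicular cells, and at 4.41, 7.44 and 9.66 CPM in WT and 5.02, 4.59 and 4.698 CPM in Sh3gl1-/- cells after CD40L, with no overlap between untreated and CD40L-treated libraries of either genotype.

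**Figure D4:**
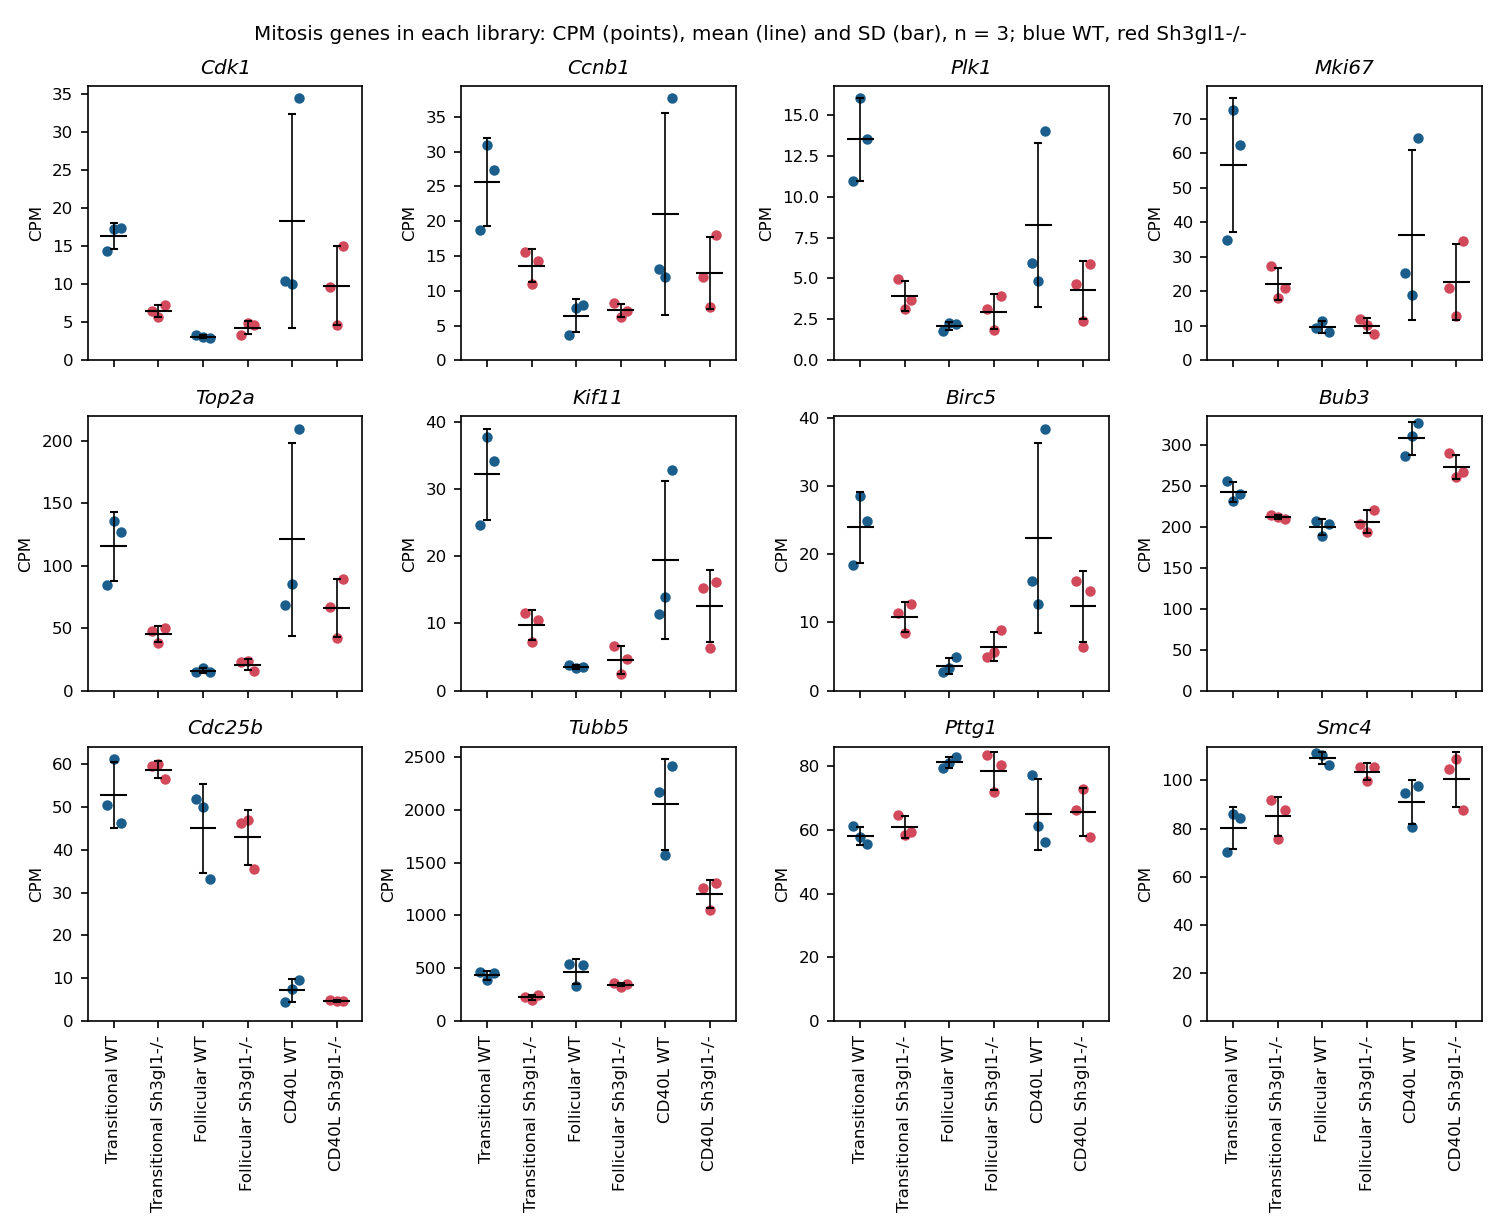
CPM of 12 mitosis genes in each of the 18 libraries (points; blue for WT and red for Sh3gl1-/-) with the mean and SD of each group of 3. In Cdk1, Ccnb1, Plk1, Mki67, Top2a, Kif11 and Birc5 the red and blue points are apart in transitional cells and 1 WT library stands high after CD40L, whereas Cdc25b falls with CD40L and Pttg1 and Smc4 have their highest mean in WT follicular cells.

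Of the transcription factors, Foxm1, which drives late cell cycle genes, stayed between 0.554 and 3.62 CPM in all libraries, at 1.31, 2.92 and 2.87 CPM in WT and 2.54, 3.09 and 1.94 CPM in Sh3gl1-/- transitional cells, at 2.79, 2.99 and 0.983 CPM in WT and 1.73, 0.893 and 2.36 CPM in Sh3gl1-/- follicular cells, and at 1.45, 0.664 and 3.62 CPM in WT and 2.23, 0.554 and 3.36 CPM in Sh3gl1-/- cells after CD40L, and passed no test. Mybl2, the B-MYB partner of the MuvB complex, was at 1.999, 1.95 and 1.44 CPM in WT and 1.12, 1.03 and 1.51 CPM in Sh3gl1-/- transitional cells, at 1.17, 1.25 and 1.36 CPM in WT and 2.18, 1.72 and 1.22 CPM in Sh3gl1-/- follicular cells, and at 11.9, 8.57 and 31.4 CPM in WT and 12.6, 9.11 and 15.9 CPM in Sh3gl1-/- cells after CD40L. It rose with CD40L in both genotypes, without overlap, and passed no other comparison. Mki67, the gene for the proliferation antigen Ki-67, was at 34.95, 72.6 and 62.3 CPM in WT and 27.2, 18.02 and 20.9 CPM in Sh3gl1-/- transitional cells, at 9.26, 11.5 and 8.16 CPM in WT and 12.1, 10.3 and 7.64 CPM in Sh3gl1-/- follicular cells, and at 25.4, 18.9 and 64.5 CPM in WT and 20.9, 12.8 and 34.6 CPM in Sh3gl1-/- cells after CD40L. Top2a, the topoisomerase that untangles sister chromatids, was at 84.4, 136 and 127 CPM in WT and 47.6, 38.5 and 50.5 CPM in Sh3gl1-/- transitional cells, at 15.03, 18.1 and 14.7 CPM in WT and 22.6, 23.8 and 15.7 CPM in Sh3gl1-/- follicular cells, and at 68.2, 85.2 and 209.9 CPM in WT and 66.6, 42.4 and 89.3 CPM in Sh3gl1-/- cells after CD40L. Both were lower in Sh3gl1-/- transitional cells, by 2.56-fold (adjusted p = 0.0278) and 2.53-fold (adjusted p = 0.00928), and both rose in transitional and in CD40L-treated cells of both genotypes.

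The condensin genes split. Smc2, the core ATPase, was at 54.5, 72.1 and 78.3 CPM in WT and 52.2, 52.6 and 73.1 CPM in Sh3gl1-/- transitional cells, at 61.7, 53.3 and 53.97 CPM in WT and 61.7, 48.8 and 55.8 CPM in Sh3gl1-/- follicular cells, and at 104, 89.6 and 159 CPM in WT and 97.5, 78.7 and 89.6 CPM in Sh3gl1-/- cells after CD40L. It rose with CD40L in both genotypes (1.05 in WT and 0.68 in Sh3gl1-/-) and passed no comparison ex vivo. Smc4, its partner ATPase, was at 70.2, 86.1 and 84.5 CPM in WT and 91.7, 75.7 and 87.6 CPM in Sh3gl1-/- transitional cells, at 111, 110.4 and 106 CPM in WT and 106, 99.8 and 106 CPM in Sh3gl1-/- follicular cells, and at 94.95, 80.7 and 97.8 CPM in WT and 105, 109 and 87.6 CPM in Sh3gl1-/- cells after CD40L, with its highest mean in WT follicular cells. Ncapg, a condensin I subunit, was at 9.99, 14.01 and 13.2 CPM in WT and 4.14, 4.31 and 5.69 CPM in Sh3gl1-/- transitional cells, at 2.66, 4.12 and 2.495 CPM in WT and 3.003, 2.81 and 5.29 CPM in Sh3gl1-/- follicular cells, and at 9.24, 12.7 and 24.9 CPM in WT and 8.86, 4.28 and 16.4 CPM in Sh3gl1-/- cells after CD40L. It fell 2.62-fold in Sh3gl1-/- transitional cells, as did the condensin I subunits Ncaph (2.505-fold, log2 -1.32 ± 0.13 (SE), adjusted p = 0.00393) and Ncapd2 (1.81-fold, log2 -0.85 ± 0.13 (SE), adjusted p = 0.0133). The genes of the 2 SMC ATPases, which condensin I shares with condensin II, did not pass in that comparison (-0.20 and 0.09).

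At the centromere, Cenpa, the centromeric histone H3 variant, was at 16.6, 20.3 and 28.98 CPM in WT and 21.5, 27.5 and 25.4 CPM in Sh3gl1-/- transitional cells, at 24.3, 13.04 and 14.9 CPM in WT and 14.1, 16.5 and 13.9 CPM in Sh3gl1-/- follicular cells, and at 6.34, 8.04 and 6.701 CPM in WT and 13.4, 13.7 and 8.42 CPM in Sh3gl1-/- cells after CD40L. It fell with CD40L in WT, and gave -0.33 with an adjusted p of 0.303 in Sh3gl1-/- cells. Ndc80, the microtubule-binding kinetochore subunit, was at 33.02, 32.6 and 33.4 CPM in WT and 31.3, 24.9 and 23.5 CPM in Sh3gl1-/- transitional cells, at 20.3, 18.8 and 18.6 CPM in WT and 17.6, 20.4 and 15.8 CPM in Sh3gl1-/- follicular cells, and at 7.52, 13.2 and 25.4 CPM in WT and 10.6, 7.999 and 13.9 CPM in Sh3gl1-/- cells after CD40L. It rose in transitional over follicular cells in both genotypes. The other subunits of the same complex had larger log2 fold changes in WT transitional over follicular cells, with Nuf2 at 3.498, Spc24 at 2.34 and Spc25 at 0.81 against 0.76 for Ndc80. In Sh3gl1-/- transitional cells Nuf2 (-1.54) and Spc24 (-0.95) fell, and Spc25 gave -0.66 (adjusted p = 0.056). Cenpf (-1.58) and the kinetochore motor Cenpe (-0.84) fell there too, whereas Knl1 gave 0.07 and did not pass.

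In the spindle checkpoint, Bub1b, or BUBR1, was at 18.9, 22.1 and 21.2 CPM in WT and 9.23, 16.02 and 9.64 CPM in Sh3gl1-/- transitional cells, at 3.24, 3.93 and 6.35 CPM in WT and 5.78, 9.89 and 6.14 CPM in Sh3gl1-/- follicular cells, and at 8.34, 19.8 and 25.96 CPM in WT and 11.9, 10.7 and 20.6 CPM in Sh3gl1-/- cells after CD40L. Its transitional groups did not overlap, and its difference of -0.83 ± 0.22 (SE) had an adjusted p of 0.0679. Bub3, which binds BUB1 and BUBR1, varied little, at 256, 232 and 239.8 CPM in WT and 214, 211 and 210.1 CPM in Sh3gl1-/- transitional cells, at 207, 188 and 204 CPM in WT and 203, 194 and 221 CPM in Sh3gl1-/- follicular cells, and at 287, 310.5 and 326 CPM in WT and 289.6, 261 and 267 CPM in Sh3gl1-/- cells after CD40L. It rose with CD40L by 1.53-fold in WT (adjusted p = 0.000113) and 1.33-fold in Sh3gl1-/- cells (adjusted p = 0.00333), and gave 0.27 in WT transitional over follicular cells (adjusted p = 0.0214). Bub1, Ttk and Mad2l1, of the checkpoint effector MAD2, gave -1.32, -1.35 and -0.21 by genotype in transitional cells, and none of them passed.

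The chromosomal passenger complex corrects attachments and later directs cytokinesis. Aurkb, its kinase, was at 27.5, 30.1 and 30.4 CPM in WT and 14.6, 14.9 and 17.4 CPM in Sh3gl1-/- transitional cells, at 8.62, 7.36 and 14.6 CPM in WT and 8.33, 10.7 and 8.002 CPM in Sh3gl1-/- follicular cells, and at 13.1, 16.7 and 39.2 CPM in WT and 14.5, 13.2 and 22.9 CPM in Sh3gl1-/- cells after CD40L. Birc5, or survivin, was at 18.3, 28.6 and 24.9 CPM in WT and 11.4, 8.43 and 12.7 CPM in Sh3gl1-/- transitional cells, at 2.72, 3.31 and 4.99 CPM in WT and 4.88, 5.61 and 8.86 CPM in Sh3gl1-/- follicular cells, and at 16, 12.7 and 38.4 CPM in WT and 16.1, 6.42 and 14.6 CPM in Sh3gl1-/- cells after CD40L. Both were lower in all Sh3gl1-/- than in all WT transitional libraries, by 1.87-fold (adjusted p = 0.0121) and 2.21-fold (adjusted p = 0.0261), as was Cdca8, or borealin (2.31-fold, adjusted p = 0.0222). Incenp, the scaffold of the complex, stayed between 2.92 and 6.57 CPM in all libraries and passed no test.

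Of the spindle motors, Kif11, the kinesin that pushes the spindle poles apart, was at 24.7, 37.8 and 34.2 CPM in WT and 11.6, 7.21 and 10.5 CPM in Sh3gl1-/- transitional cells, at 3.82, 3.31 and 3.48 CPM in WT and 6.61, 2.49 and 4.71 CPM in Sh3gl1-/- follicular cells, and at 11.4, 13.9 and 32.8 CPM in WT and 15.2, 6.42 and 16.1 CPM in Sh3gl1-/- cells after CD40L. Its transitional groups were far apart, with the lowest WT library well above the highest Sh3gl1-/- one. Kif23 (-1.68), Kif20a (-1.54), Kif22 (-1.16) and Kif15 (-1.07) fell in Sh3gl1-/- transitional cells too, and Kif20b (-0.07) was the only 1 of the 8 motors that did not pass. Kif20a and Kif23, with Prc1, act on the central spindle. Prc1, which bundles its microtubules, was at 21.2, 39.9 and 36.2 CPM in WT and 19.2, 16.3 and 15.3 CPM in Sh3gl1-/- transitional cells, at 7.06, 8.42 and 7.11 CPM in WT and 9.99, 8.36 and 11.8 CPM in Sh3gl1-/- follicular cells, and at 13.1, 11.96 and 26.6 CPM in WT and 10.7, 9.03 and 14.6 CPM in Sh3gl1-/- cells after CD40L.

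Tubb5 was at 461, 384 and 457 CPM in WT and 230.0, 197 and 242 CPM in Sh3gl1-/- transitional cells, at 539, 333 and 529 CPM in WT and 357, 325 and 347 CPM in Sh3gl1-/- follicular cells, and at 2170, 1570 and 2412 CPM in WT and 1258, 1049 and 1304 CPM in Sh3gl1-/- cells after CD40L. It rose with CD40L in both genotypes, and it was 1.94-fold lower in Sh3gl1-/- transitional cells (log2 -0.96 ± 0.11 (SE), adjusted p = 0.00767). After CD40L its Sh3gl1-/- libraries also lay below all WT ones, with -0.73 and an adjusted p of 0.329. Ckap5, the microtubule polymerase XMAP215, was at 91.8, 105 and 93 CPM in WT and 68.3, 77.02 and 68.96 CPM in Sh3gl1-/- transitional cells, at 58.9, 58.1 and 58.1 CPM in WT and 72.9, 78.7 and 76.4 CPM in Sh3gl1-/- follicular cells, and at 80.1, 98.9 and 112 CPM in WT and 76.6, 70.1 and 80.8 CPM in Sh3gl1-/- cells after CD40L. The genotypes were apart in opposite directions in the ex vivo states: Ckap5 was 1.35-fold lower in Sh3gl1-/- transitional cells (adjusted p = 0.0393), and in follicular cells it lay above WT in all Sh3gl1-/- libraries (0.39 ± 0.09 (SE), adjusted p = 0.0822, not called). The spindle assembly factor Tpx2 (-1.60), Hmmr (-1.39), Ckap2l (-1.41), Nusap1 (-0.99) and Tacc3 (-0.64) fell in Sh3gl1-/- transitional cells, and Ckap2 gave -1.28 with an adjusted p of 0.105.

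For cytokinesis, Ect2, the activator of RhoA at the cell equator, gave -1.04 (adjusted p = 0.102) and Racgap1, the centralspindlin subunit that recruits ECT2, -0.56 (adjusted p = 0.463) by genotype in transitional cells. None of the genes of mitotic exit was called by genotype. Cdc20, the activator of the anaphase-promoting complex, was at 4.69, 5.096 and 7.903 CPM in WT and 4.32, 6.37 and 6.19 CPM in Sh3gl1-/- transitional cells, at 4.86, 3.18 and 1.59 CPM in WT and 1.802, 1.21 and 4.07 CPM in Sh3gl1-/- follicular cells, and at 1.72, 7.71 and 6.04 CPM in WT and 7.88, 5.46 and 3.6 CPM in Sh3gl1-/- cells after CD40L, and passed no test. Ube2c, its ubiquitin-conjugating enzyme, was at 8.69, 18.7 and 19.3 CPM in WT and 11.1, 7.79 and 12.5 CPM in Sh3gl1-/- transitional cells, at 2.397, 2.74 and 1.28 CPM in WT and 5.48, 2.93 and 5.001 CPM in Sh3gl1-/- follicular cells, and at 7.58, 6.71 and 15.4 CPM in WT and 5.79, 2.85 and 7.32 CPM in Sh3gl1-/- cells after CD40L. The enzyme's gene rose in transitional cells of both genotypes and with CD40L in WT, and overlapped between genotypes in transitional cells. Pttg1, the securin that holds separase, was at 61.3, 57.9 and 55.6 CPM in WT and 64.8, 58.6 and 59.5 CPM in Sh3gl1-/- transitional cells, at 79.6, 81.02 and 83.1 CPM in WT and 83.5, 72.02 and 80.6 CPM in Sh3gl1-/- follicular cells, and at 77.4, 61.2 and 56.1 CPM in WT and 66.3, 72.9 and 57.7 CPM in Sh3gl1-/- cells after CD40L. It was lower in all transitional than in all follicular libraries of both genotypes. Espl1, separase itself, reached at most 2.84 CPM, at 1.38, 0.974 and 1.68 CPM in WT and 1.48, 1.54 and 0.792 CPM in Sh3gl1-/- transitional cells, at 0.648, 0.499 and 0 CPM in WT and 0.526, 0.191 and 0.357 CPM in Sh3gl1-/- follicular cells, and at 0.896, 1.26 and 2.84 CPM in WT and 1.25, 1.27 and 1.04 CPM in Sh3gl1-/- cells after CD40L. At this depth only its rise with CD40L in WT was called (2.06 ± 0.75 (SE), adjusted p = 0.0351), from at most 0.648 CPM. CD40L WT replicate 3, the library that stood apart, held 47 counts of Espl1, against 13 and 19 in replicates 1 and 2.

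A further 120 mitosis genes outside the 58 were counted in 5 lists: G2/M kinases and cyclins, the anaphase-promoting complex, cohesin and condensin II, centromere and kinetochore, and spindle and cytokinesis. In WT transitional over follicular cells 46 of 117 tested rose and 4 fell (14.2% and 11.7% of all genes), with Esco2, a cohesin acetyltransferase (3.33 ± 0.32, SE), Shcbp1 (2.16 ± 0.21) and Aspm, a spindle-pole protein (3.06 ± 0.33), having the lowest p. The lowest p among falls were those of Wapl, a cohesin release factor (-0.78), Cdc16 (-0.62) and Numa1 (-0.51). In Sh3gl1-/- cells 8 of 117 rose, a share close to the 6.72% of all genes. The lowest p were those of Esco2 (1.72), Cenpt (0.55) and Ncapd3 (0.74), and Wapl (-0.47) and Haus7 (-0.36) fell, where 3.71% of all genes did. By genotype in transitional cells 0 of 116 rose and 19 fell (2.48% of all genes), led by Arhgap11a (-1.04), Sgo1, or shugoshin (-1.64), and Shcbp1 (-1.08), with a median of -0.33. With CD40L 67 of 116 rose and 6 fell in WT, and 47 rose and 5 fell in Sh3gl1-/- cells, where 23.6% and 25.7%, and 20.6% and 21.7%, of all genes did. Without both CD40L libraries numbered 3 the counts were 52 and 7 in WT and 40 and 4 in Sh3gl1-/- cells. Genes called in all, in either direction, were then 6037 and 5413, against 7126 and 6130 with every library. Zwint, a kinetochore protein, rose in both (1.65 and 1.34), as did Cks2, a CDK-binding protein (1.99 and 1.75). Ran, of spindle assembly and nuclear transport, was among the 3 lowest p in WT (1.69) and Wee1, which inhibits CDK1, in Sh3gl1-/- cells (2.32). Mau2, Nipbl and Rad21, of cohesin and its loader, fell in both, with log2 fold changes of -0.73, -0.42 and -0.61 in WT and -0.53, -0.46 and -0.62 in Sh3gl1-/- cells. By genotype 0 of 110 passed in follicular and 0 of 116 in CD40L-treated cells, with 9 and 1 at an unadjusted p under 0.05.

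Of 36 DNA replication genes, which act before mitosis, 21 rose and 1 fell in WT transitional over follicular cells (14.2% and 11.7% of all genes), and 4 rose in Sh3gl1-/- (6.72% of all genes). Rrm2 and Rrm1, of ribonucleotide reductase, led (2.27 ± 0.16 and 1.08 ± 0.11, SE, in WT, and 0.73 ± 0.16 and 0.55 ± 0.11 in Sh3gl1-/-), followed by Mcm7 of the replicative helicase in WT (0.998) and Uhrf1, of DNA methylation upkeep, in Sh3gl1-/- (0.77). Cdt1, a licensing factor, was the 1 that fell (-0.57). In Sh3gl1-/- transitional cells 13 of 36 fell by genotype (2.48% of all genes), led by Rrm2 (-1.21 ± 0.12 (SE), adjusted p = 0.00393), Lig1, DNA ligase 1 (-1.05), and Rrm1 (-0.58). With CD40L 32 of 36 rose in WT (23.6% of all genes) and 28 in Sh3gl1-/- cells (20.6%), and 28 and 29 without both CD40L libraries numbered 3. That last fit called 6037 genes in WT and 5413 in Sh3gl1-/- cells in all, in either direction. Cdt1 fell in both (-0.66 and -0.82). Uhrf1 (4.005 and 3.60) and Rfc4, a clamp loader subunit (1.97 and 1.29), led in both, then Prim1, a primase subunit, in WT (1.41) and Cdc6 in Sh3gl1-/- (3.43). By genotype 0 of 36 passed in follicular and in CD40L-treated cells, with 4 and 0 at an unadjusted p under 0.05.

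Markers of cell type differed between genotypes in the transitional libraries, where the mitosis genes differed. Of the 4 transitional markers 1 was lower in Sh3gl1-/- (Cd24a, -0.87 ± 0.15 (SE), adjusted p = 0.0256). The sum of the 4, mostly Vpreb3, was 882 to 1020 CPM in WT and 506 to 811 CPM in Sh3gl1-/- libraries, and Cd93 overlapped. The following sums are of transitional libraries, WT against Sh3gl1-/-, and calls are of Sh3gl1-/- relative to WT. Of 5 follicular markers Ighd was higher (0.56) and Cxcr5 lower (-0.44), with sums of 4887 to 6178 against 6079 to 6863 CPM, led by Ighd. The 4 other than Ighd summed to 2400 to 2786 against 2003 to 2625 CPM, with a lower mean in Sh3gl1-/- (2360 against 2651 CPM). Of 6 plasmablast markers Jchain was higher (2.35), at 654, 589 and 411 CPM in WT and 2801, 1075 and 4525 CPM in Sh3gl1-/-, and Mzb1 lower (-0.44). The 6 markers summed to 841 to 1096 against 1402 to 4918 CPM. The 5 other than Jchain, mostly Mzb1, summed to 430.4 to 463 against 327.5 to 394 CPM. Of 8 erythroid markers 6 were higher, with sums of 2315 to 4009 against 4495 to 9560 CPM, led by Hba-a2. Of 7 neutrophil markers tested 1 was higher (Camp, 2.39), with sums of 53.1 to 97.95 against 112.5 to 571 CPM, led by Ngp. The 8 B-lineage markers, led by Cd79a, had no call, with sums of 16820 to 19400 against 13200 to 17040 CPM. Of 5 marginal zone markers Cd1d1 was lower (-0.69), with sums of 353 to 370 against 213 to 260 CPM. Germinal centre marker sums were 134.5 to 145 against 170.7 to 182 CPM, led by Bcl6, with Rgs13 higher (0.92). Macrophage marker sums, led by Lyz2, were 579 to 682 against 514 to 903 CPM. Pre-B and pro-B markers, led by Il7r, summed to 5.38 to 13.9 against 9.21 to 19.6 CPM, with Vpreb2 at 0. Of 9 T-cell markers 0 were called and 7 had an unadjusted p under 0.05. Their sums overlapped (164 to 204 against 181 to 254 CPM), but Lck, the most abundant, was lower in all Sh3gl1-/- libraries, and Cd3e, Cd3d, Cd3g, Cd4 and Trac were higher in all of them. Cd3e, of the T-cell receptor complex, was at 3.58, 8.92 and 12.5 CPM in WT and 16.2, 13.6 and 17.4 CPM in Sh3gl1-/-, and Cd3d at 7.51, 10.5 and 13.7 and 23.5, 14.5 and 17.6 CPM. The 8 T-cell markers other than Lck summed to 58.9 to 94.8 against 91.4 to 154.6 CPM. Sums for NK cells (16.2 to 40.3 against 29.3 to 45.7 CPM) and dendritic cells (12.4 to 16.1 against 15.4 to 33.2 CPM) overlapped. In follicular cells, where no mitosis gene was called, Cd24a was also lower in Sh3gl1-/- (-0.75). There, again WT against Sh3gl1-/-, T-cell marker sums were 190.7 to 235 against 291 to 349.6 CPM, with 2 of 9 called, neutrophil sums 60.6 to 176 against 175 to 804 CPM, erythroid sums 1444 to 3871 against 3013 to 9360 CPM, and macrophage sums 127 to 162 against 133 to 299 CPM. Mean sums in untreated and CD40L-treated follicular cells were 2976 and 134 CPM in WT and 6326 and 68.05 CPM in Sh3gl1-/- for erythroid markers. For neutrophil markers they were 104 and 23.9, and 424 and 97.96 CPM, and for T-cell markers 214 and 90.1, and 320 and 100.4 CPM. NK sums were 40.8 and 5.03, and 52.07 and 3.92 CPM. Dendritic cell sums were higher with CD40L, at 15.25 and 32.3, and 17.2 and 35.45 CPM, led after CD40L by Zbtb46. Its mean in WT was 4.91 CPM untreated and 23.7 CPM after CD40L. The markers Itgax, Clec9a and Siglech went the other way, lower in all CD40L-treated than in all untreated follicular libraries. The part of any of these cells in the mitosis genes' differences was not tested.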

How the data were processed

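RNA of 18 libraries was sequenced. Per the labels, libraries were stranded poly-A libraries, and the submitters' processing notes name cutadapt 1.9.1, STAR 2.5.2a and RSEM 1.3.0 on GRCm38. The study's methods name another kit, aligner and counter, and give overnight culture with CD40L. Its figure legends give a longer CD40L duration than the 14 h of the labels. Whether counting used strand is not given in the sources used here. The authors deposited RSEM expected counts, TPM and FPKM per gene, each library on its own. FPKM was not used, and TPM served only to compare levels between genes. Expected counts were rounded and tested with edgeR 4.0.16 (R 4.3.3), using TMM, filterByExpr, the quasi-likelihood test and Benjamini-Hochberg adjustment over all genes tested, with calls at an adjusted p under 0.05. SE was the absolute log2 fold change over the square root of F. Comparisons between states were fitted on 12 libraries and genotype comparisons within a state on 6. DESeq2 1.42.0, other scalings and filters, 1 fit of all libraries, a replicate block and leaving out each library were alternatives. Leaving out both CD40L libraries numbered 3 was added after seeing the data. The script was tested on simulated data.

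The members and lists were chosen with earlier results of these data known. Values in every library are given for 26 members, chosen by role. For each comparison the 5 called members with the largest change in each direction are named, and all of them where at most 10 were called. In the other mitosis and replication lists the 3 with the lowest p in each direction are named. Genes singled out beyond this rule were chosen after their values were seen. Deviations of same-numbered libraries from their group means correlated by 0.103, 0.144 and 0.242 between WT transitional and follicular cells and by 0.195, 0.263 and 0.114 between Sh3gl1-/- ones, so that the numbers were taken as pairs within genotype for these states. For follicular and CD40L-treated cells the correlations were 0.144, 0.136 and 0.224 in WT and 0.119, 0.0795 and 0.0298 in Sh3gl1-/-. All were positive but lower in Sh3gl1-/-, and whether these libraries pair was not tested.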

Additional observations from a re-analysis of the deposited data

Results flagged for a closer look

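The effect of genotype differed between transitional and follicular cells by a direct interaction test (edgeR) in 4 of the 58 mitosis genes and in 3 of 36 DNA replication genes, all with a lower effect in transitional cells, where 0.048% of all genes (7 of 14580) had one. The difference of log2 fold changes, transitional minus follicular, was -1.78 for Cdk1, -1.71 for Top2a, -1.03 for Ncapd2 and -0.80 for Ckap5. Among replication genes it was -1.54 for Rrm2, -1.27 for Lig1 and -1.09 for Mcm5, a subunit of the replicative helicase. Neutrophil and erythroid marker sums were higher on average in Sh3gl1-/- libraries of both states, with means of 286 against 70.4 and 7673 against 3126 CPM in transitional cells and 424 against 104 and 6326 against 2976 CPM in follicular cells. Jchain averaged 2800 against 551 CPM in Sh3gl1-/- and WT transitional cells. The other 5 plasmablast markers, mostly Mzb1, summed to 361 against 445 CPM on average. Among them Xbp1 was at 30.8, 18.8 and 42.97 CPM in Sh3gl1-/- and 17.5, 15.4 and 19.4 CPM in WT. Of 9 T-cell markers 5 were higher in all Sh3gl1-/- transitional libraries. The part of these cells in the differences was not tested. With the replicate number as a block within genotype 14 mitosis genes passed, these 4 among them, and 99 genes in all against 10 without it. In the fits without the block, 0 mitosis genes passed in 9 of the 12 that left out 1 library.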

How the results depend on the processing

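Of the single-gene results, 1580 kept their call in the fits that left out 1 library and 280 lost it, and 1124 kept it under the other settings and 110 lost it, with 0 reversed. Counts of called mitosis genes moved by over 1.5 times as follows, and causes were not tested. DESeq2 called 1 for the genotype difference in the CD40L response, 25 for that between transitional and follicular cells, and 1 each for genotype in follicular and CD40L-treated cells. With every gene of at least 1 count tested, the counts were 35 for CD40L in Sh3gl1-/- cells, 5 for its genotype difference, 29 for transitional over follicular Sh3gl1-/- cells, 32 for its genotype difference, and 2 each for genotype in follicular and CD40L-treated cells. With all 18 libraries in 1 fit they were 4 for transitional over follicular Sh3gl1-/- cells, 0 for its genotype difference and 3 for genotype in transitional cells. With the replicate block within genotype, the genotype difference between transitional and follicular cells called 14 (99 genes in all against 10). Across genotypes the numbers do not pair the libraries, and there the replicate block left 12 of the 32 genotype calls in transitional cells, all among the 32. That fit called 90 genes in all, against 514 without the block. The block changed no other count by over 1.5 times. Leaving out 1 library gave 35 to 49 calls for CD40L in WT, 14 to 32 in Sh3gl1-/- and 0 for their difference, 42 to 47 for transitional over follicular cells in WT, 10 to 22 in Sh3gl1-/- and 0 to 7 for their difference, and 6 to 29, 0 to 1 and 0 calls for genotype in transitional, follicular and CD40L-treated cells. Depth limits Kif4 and Espl1 most, with 27 and 33 counts summed over the 6 follicular libraries.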
